A study of Mus musculus with 9 samples.

Results

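The histone genes studied here were taken as all rows of the expression table whose symbol begins with Hist1h, Hist2h, Hist3h or Hist4h. This gave 68 genes of the 24060 listed. They fall into the linker histone family H1 with 6 genes and the core families H2A with 18, H2B with 19, H3 with 12 and H4 with 13. By position, 54 belong to the Hist1 cluster on chromosome 13, 10 to Hist2 on chromosome 3, 3 to Hist3 on chromosome 11 and 1, Hist4h4, stands alone on chromosome 6. Hist3h2bb-ps carries the suffix of a pseudogene.

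The samples were CD8 T cells of 3 transnuclear mouse lines, Rop7-I, Rop7-II and Rop7-III, each derived by nuclear transfer from 1 T cell that recognises the Rop7 peptide of Toxoplasma gondii on H-2Ld. All 3 lines therefore share the antigen and differ in their prearranged T-cell receptor, and the comparisons ask how cells with each receptor differ before they meet the antigen. Splenocytes that had received no antigen spent a night in IL-2 (10 ng/ml) in every group, after which CD3+ CD8+ cells binding the H-2Ld-Rop7 tetramer were sorted. Each line gave 3 biological replicates, 9 samples in all. The study calls the sequenced cells of all lines homozygous, and the lines had been repeatedly backcrossed to BALB/c. The clones were the only groups, with no other genotype as a control, and each clone is a single line, so the receptor and any other property of that line cannot be told apart. The age of the mice was not given in the sources used here. RNA was polyadenylated and the library did not keep the strand. Levels are TPM, a transcript abundance scaled to transcript length and to the sample total. They can be set side by side between genes as far as their RNA carries a poly(A) tail.

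Nucleosomes wrap DNA around H2A, H2B, H3 and H4, and H1 binds the linker between them. Replication-type histone genes are transcribed mainly in S phase, and their RNA normally ends just after a stem-loop bound by the stem-loop binding protein (Slbp) and carries no poly(A) tail. Some of these genes can also use a downstream poly(A) signal, and those transcripts are what a library of polyadenylated RNA collects best. Variant histones such as H2afz and H3f3b are made throughout the cell cycle with a poly(A) tail.

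The expression table held few of these genes at a clear level. A mean of at least 5 TPM over the 9 samples was reached by 8 genes, which are called well detected here. A further 8 lay above 1 and below 5 TPM and are called low. The other 52 had a mean of 1 TPM or less, and 11 of them were listed at 0 in every sample. The plot of levels by gene shows a steep fall within the first 10 genes. A sample listed 26 to 35 of the 68 genes above 0 and 12 to 18 above 1 TPM, and the whole group made up 0.0160 to 0.0226% of all TPM. Within that group total, the 8 well detected genes held 79.8 to 90.1%.

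**Figure D1:**
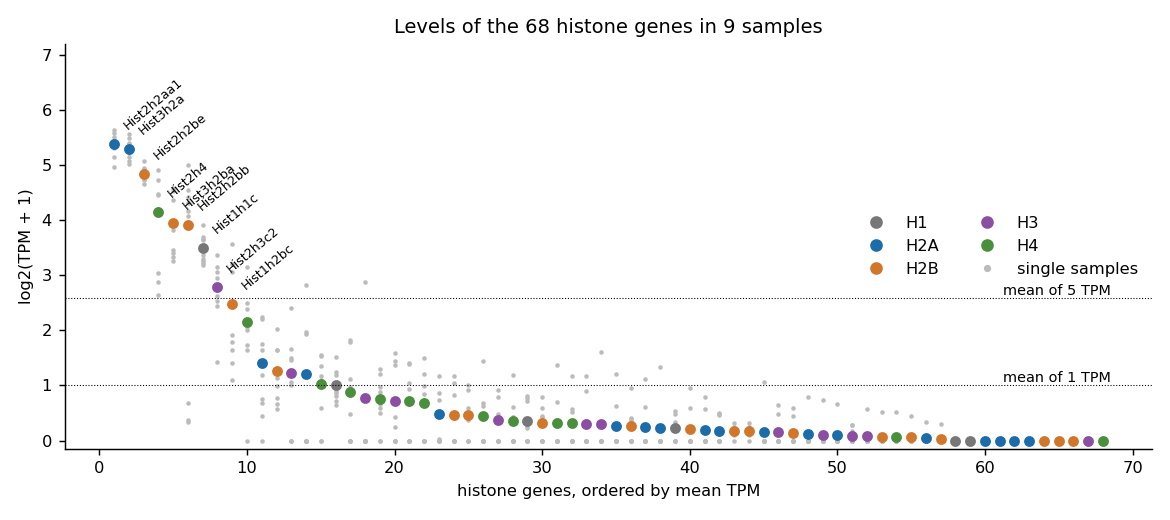
Each of the 68 histone genes is placed by its rank in mean TPM (x axis) against log2(TPM + 1) (y axis). Coloured points are the log2 of the mean TPM plus 1, coloured by family, grey points are the 9 single samples, and dotted lines mark means of 5 and 1 TPM. The 8 genes above the upper line are separated from the 52 at or below the lower line by 8 genes in between.

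The clusters differed in how many genes were seen. In Hist2, 5 of the 10 genes were well detected, 3 were low and 2 were near 0. In Hist3, 2 of the 3 were well detected and the pseudogene was near 0. In Hist1, by far the largest cluster, 1 of the 54 genes was well detected, 5 were low and 48 were near 0. The families did not divide in this way, since each had 1 to 3 well detected members. H2B had 3 (Hist2h2be, Hist3h2ba and Hist2h2bb), H2A had 2 (Hist2h2aa1 and Hist3h2a), and H1, H3 and H4 had 1 each (Hist1h1c, Hist2h3c2 and Hist2h4).

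The 3' ends of the transcripts were read from the GENCODE M21 annotation (GRCm38, which corresponds to mm10), where all 68 genes were found. The search was for 16 bases that form a perfect stem of 6 pairs, starting with GG and ending with CC, around a loop of 4 bases that starts with TT. The following examples are shown because their ends differ in how much transcript follows the stem-loop. Capitals mark the arms of the stem, the lower case between them is the loop, and 5 bases flank each side.
Hist2h4: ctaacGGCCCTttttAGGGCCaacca
Hist3h2ba: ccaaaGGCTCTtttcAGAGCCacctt
Hist3h2a: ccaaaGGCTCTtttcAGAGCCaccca
Hist1h1c: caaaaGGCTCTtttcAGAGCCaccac
Hist2h2aa1: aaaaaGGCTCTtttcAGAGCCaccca
Hist1h4f: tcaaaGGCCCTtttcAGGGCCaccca
The annotated transcript went on past the last base of the stem-loop for 1257 bases in Hist2h4, 169 in Hist3h2ba, 1643 in Hist3h2a and 840 in Hist1h1c, all well detected. It went on for 33 bases in Hist1h4f, an H4 gene near 0 that was picked as an example of a short end. Hist2h2aa1 had the highest mean of all members and only 35 bases after the stem-loop. Every stretch of 100 bases in it is also found in other gene models, Gm20633, Gm20632, Gm20634 and its copy Hist2h2aa2 among them. Its level can therefore not be assigned to this short end.

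Over all members, the stem-loop was found in 6 of the 8 well detected genes, 6 of the 8 low genes and 32 of the 52 near 0. By the same search it was found in 130 of 21877 protein-coding genes, or 0.594%. An AATAAA or ATTAAA poly(A) signal stood in the last 50 bases of the transcript in 5 of the 8 well detected genes, 3 of the 8 low genes and 9 of the 52 near 0. Where a stem-loop was found, the median length of transcript after it was 608.5 bases in the well detected genes, 193.5 in the low genes and 51 in those near 0. The median transcript was 1290, 627.5 and 516 bases long in the same order. In 14 of the 52 genes near 0, and in Hist2h2bb among the well detected, the annotated transcript stopped within 20 bases of the coding part, where no stem-loop could be found. These counts describe the annotation. The RefSeq models used to make the TPM values date from 2015 and may end elsewhere.

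Many members are near-identical copies, which bears on how far a single row can be read. Translated from the annotation, all 13 H4 genes encode the same protein, and so do 9 H2A genes, 7 H3 genes, 6 H2B genes, a second set of 4 H3 genes, the trio Hist1h2bc, Hist1h2be and Hist1h2bg, and the pair Hist2h2aa1 and Hist2h2aa2. A read of 100 bases, the length used in the study, cannot be placed where a transcript shares all 100 bases with another listed gene. Of all such windows in the transcript, this held for 0% in Hist2h4, Hist2h2be and Hist2h2bb, 4.85% in Hist3h2ba, 5.07% in Hist1h1c, 25.4% in Hist1h2bc and 29.8% in Hist3h2a, where the gene sharing sequence is Trim17. It held for 61.6% in Hist2h3c2, 88.1% in Hist2h2aa1 and 100% in Hist2h2aa2, and for these genes a value shared out between copies is uncertain. More than 50% of windows were shared in 2 of the 8 well detected genes, 2 of the 8 low genes and 20 of the 52 near 0. Hist1h2bq and Hist1h2br were listed with the same value in all 9 samples.

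In the following comparisons, a gene passed when limma's moderated test on log2(TPM + 1), fitted to the 12115 genes with a maximum above 1 TPM, gave a Benjamini-Hochberg adjusted p under 0.01. A log2 difference is on this scale and understates the change of genes at low TPM. Of the 68 members, 35 entered the test and the others did not reach the filter. The labels call the replicates biological and do not tie them to single mice, so p-values measure the spread between these samples. A member can pass the filter through a single high sample, so counts over the 35 are not counts over all members.

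Before the results, 2 libraries are to be kept in mind. The summed TPM of 14 B-cell markers was 2586 in Rop7-II replicate 1, where all 14 were at their highest, and 1110 in Rop7-I replicate 2. The other Rop7-I samples were at 424 and 821, and all remaining samples at 157 to 333. Every Rop7-I sample was thus above every sample of the other clones except Rop7-II replicate 1. Leaving out the 2 libraries does not remove this difference between clones, and its part in the calls was not tested. In Rop7-II replicate 1 the 11 myeloid markers in the table also summed to 789 TPM, each at its highest there, against 134 to 330 elsewhere. The 8 CD8 T-cell markers, Cd3e and Cd8a among them, summed to 7201 to 8087 TPM in every sample, which goes with the labelled cell type. Rop7-I replicate 2 also had the highest sum of 7 erythroid markers, 1408 TPM against 15.2 to 286 elsewhere, with Hbb-bs listed at 0 in every sample. CD4 T-cell markers summed to 23.5 to 47.6 TPM. NK-cell markers summed to 12.8 to 18.3 TPM in Rop7-I, 2.50 to 3.35 in Rop7-II and 5.82 to 7.91 in Rop7-III. Eomes alone gave 12.35 to 17.46 TPM of the Rop7-I sums. In bulk RNA, a smaller number of cells with a transcript and less of it per cell cannot be told apart.

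Over the 3 clones together, 4 of the 35 tested histone genes differed by the F test, Hist2h2bb, Hist2h4, Hist3h2ba and Hist1h2bc, against 14.1% of all tested genes. The share of members is thus near the background, and the histone genes as a group did not stand out by their number of calls. In all 4 genes every Rop7-I sample lay on the same side of every sample of the other clones. Rop7-I was below them in Hist2h2bb and Hist2h4 and above them in Hist3h2ba and Hist1h2bc. The 4 genes were picked by the test on these values, so this separation adds no support. The share of all tested genes that separate in this way was not counted.

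Hist2h2bb, an H2B gene on chromosome 3 (GRCm38 chr3:96269752-96270132, plus strand), showed the widest gap. It was listed at 0.26, 0.30 and 0.60 TPM in the Rop7-I samples, at 31.2, 22.5 and 20.5 TPM in Rop7-II and at 15.9, 18.9 and 16.9 TPM in Rop7-III. The groups of Rop7-I and the other clones did not overlap, and the lowest sample outside Rop7-I was still well above every Rop7-I sample. The mean TPM was 0.387 ± 0.186 (SD, n = 3) in Rop7-I, 24.7 ± 5.70 in Rop7-II and 17.2 ± 1.48 in Rop7-III, a ratio of 63.9 for Rop7-II over Rop7-I and of 44.6 for Rop7-III over Rop7-I. Hist2h2bb was lower in Rop7-I relative to Rop7-II with a log2 difference of -4.20 (limma adjusted p = 4.42e-07) and higher in Rop7-III relative to Rop7-I by 3.72 (adjusted p = 1.72e-06). Between Rop7-III and Rop7-II the log2 difference was -0.48 ± 0.16 (SE), which did not pass (adjusted p = 0.0522). With both libraries highest in B-cell markers left out, the log2 differences were -3.98 and 3.68 and both still passed.

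In the annotation all windows of Hist2h2bb are also found in 2 overlapping gene models, Gm20628 and Gm42743, which have no row in the table, and its annotated transcript is the coding part alone. Which model the TPM of Hist2h2bb were made with is not given in the sources used here, so RNA of an overlapping model may be part of its values, which was not tested.

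Hist2h4, the only well detected H4 gene (chr3:96261682-96263311, minus strand), lies 6.44 kb from Hist2h2bb in the same cluster, with Hist2h3b between them. Hist2h4 had the same order of clones as Hist2h2bb. It was at 5.26, 7.24 and 6.37 TPM in the Rop7-I samples, 25.6, 20.9 and 29.2 TPM in Rop7-II and 17.4, 17.2 and 21.3 TPM in Rop7-III. All Rop7-I samples were below all others, whereas the samples of Rop7-II and Rop7-III overlapped. The means were 6.29 ± 0.992, 25.2 ± 4.18 and 18.6 ± 2.29 TPM (SD, n = 3), so that Rop7-II stood at 4.01 times and Rop7-III at 2.96 times Rop7-I. Hist2h4 was lower in Rop7-I relative to Rop7-II with a log2 difference of -1.84 (adjusted p = 4.85e-05) and higher in Rop7-III relative to Rop7-I by 1.43 (adjusted p = 3.24e-04). The difference between Rop7-III and Rop7-II was -0.41 ± 0.14 (SE, adjusted p = 0.0601). None of its 100-base windows is shared with another listed gene, and the differences without both libraries highest in B-cell markers, -1.92 and 1.52, passed.

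Hist3h2ba, an H2B gene of the Hist3 cluster (chr11:58948920-58949533, plus strand), had its highest level in Rop7-I, where Hist2h2bb and Hist2h4 had their lowest. Its samples read 22.1, 23.1 and 19.7 TPM in the Rop7-I samples, 13.2, 10.0 and 14.2 TPM in Rop7-II and 8.52, 9.63 and 9.03 TPM in Rop7-III. Every Rop7-I sample was above every Rop7-II sample, and every Rop7-II sample was above every Rop7-III sample. The means were 21.6 ± 1.80, 12.5 ± 2.19 and 9.06 ± 0.556 TPM (SD, n = 3), and Rop7-I stood at 1.74 times Rop7-II and 2.39 times Rop7-III. The log2 difference was 0.76 for Rop7-I against Rop7-II (adjusted p = 0.00277) and -1.17 for Rop7-III against Rop7-I (adjusted p = 3.80e-04), and both passed. For Rop7-III against Rop7-II it was -0.41 ± 0.12 (SE), which did not pass at 0.01 (adjusted p = 0.0332). Without Rop7-II replicate 2, that difference did pass, at -0.55. Without Rop7-I replicate 1 the call of Rop7-I against Rop7-II was lost (adjusted p = 0.0134), as it was without Rop7-I replicate 2 (0.0158) and without both libraries highest in B-cell markers (0.0175).

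Hist1h2bc, an H2B gene of the Hist1 cluster (chr13:23684199-23692908, plus strand), was low rather than well detected. It was at 7.37, 10.8 and 8.20 TPM in the Rop7-I samples, 4.65, 1.15 and 1.66 TPM in Rop7-II and 2.14, 2.79 and 2.47 TPM in Rop7-III. The Rop7-I samples were above all others, and the highest value outside Rop7-I was in the Rop7-II library with the most B-cell marker RNA. The means were 8.79 ± 1.79, 2.49 ± 1.89 and 2.47 ± 0.325 TPM (SD, n = 3), that is 3.53 and 3.56 times as much in Rop7-I as in Rop7-II and Rop7-III. Hist1h2bc was higher in Rop7-I relative to Rop7-II by 1.60 on the log2 scale (adjusted p = 0.00791), while the difference of -1.49 for Rop7-III against Rop7-I did not pass (adjusted p = 0.0146). Without Rop7-II replicate 1 these were 2.02 (adjusted p = 1.30e-04) and -1.49 (adjusted p = 4.31e-04), and both passed. The call of Rop7-I against Rop7-II was lost in 13 of 21 alternative analyses, with adjusted p of up to 0.0366.

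**Figure D2:**
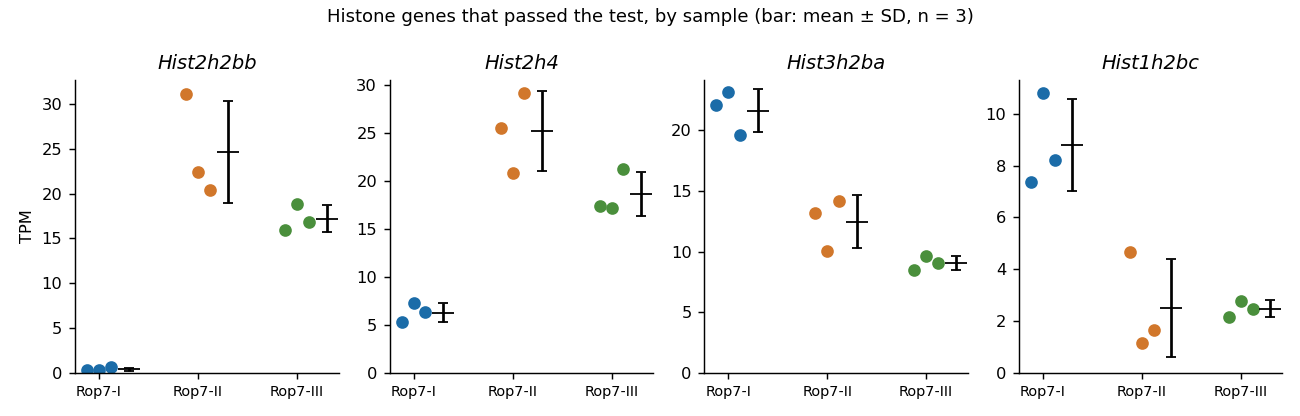
TPM (y axis, linear from 0) of the 4 histone genes that passed the test, in 3 samples of each clone (x axis); points are samples in replicate order and black bars give the mean ± SD. Rop7-I is lowest for Hist2h2bb and Hist2h4 and highest for Hist3h2ba and Hist1h2bc.

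The other well detected members gave values that did not pass in any pair. Hist2h2aa1, which encodes an H2A shared with Hist2h2aa2, was at 34.5, 44.8 and 30.2 TPM in the Rop7-I samples, 47.0, 48.6 and 40.8 TPM in Rop7-II and 39.1, 38.5 and 43.0 TPM in Rop7-III. Its groups overlapped, and the log2 differences were -0.17, 0.15 and -0.32 for Rop7-III against Rop7-II, Rop7-III against Rop7-I and Rop7-I against Rop7-II. Summed with its copy Hist2h2aa2, which was above 0 in only 3 of the 9 samples, it gave 37.5 ± 9.14, 48.4 ± 2.55 and 40.2 ± 2.47 TPM in the Rop7-I samples, Rop7-II and Rop7-III.

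Hist3h2a, the H2A gene next to Hist3h2ba (chr11:58954685-58956830), was at 43.8, 46.4 and 34.6 TPM in the Rop7-I samples, 41.0, 41.2 and 38.7 TPM in Rop7-II and 36.3, 31.4 and 32.7 TPM in Rop7-III. The Rop7-III samples were all below those of Rop7-II and overlapped those of Rop7-I, with log2 differences of -0.26 (adjusted p = 0.0857) and -0.30 (adjusted p = 0.0829). Hist2h2be, the highest H2B gene (chr3:96221119-96223738), stayed within 24.2 to 32.6 TPM over all 9 samples. Its means of 30.3 ± 2.09, 26.1 ± 0.975 and 26.8 ± 2.74 TPM differed by at most 0.20 on the log2 scale (adjusted p = 0.103, Rop7-I against Rop7-II).

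Hist1h1c, a linker histone gene and the one well detected member of the Hist1 cluster (chr13:23738808-23740367), ranged from 8.13 to 14.1 TPM. Its clone means were 9.64 ± 1.68, 10.3 ± 3.24 and 10.8 ± 1.72 TPM, within the spread between replicates. Hist2h3c2, an H3 gene (chr3:96238108-96239127), ranged from 1.69 to 9.32 TPM and had means of 4.15 ± 2.15, 6.85 ± 2.43 and 6.67 ± 1.66 TPM. Its sequence is shared with Hist2h3c1 and Hist2h3b, and the trio summed to 7.57 ± 1.98, 7.44 ± 1.66 and 8.82 ± 1.39 TPM. Hist2h3c1 itself was listed at 6.32 TPM in Rop7-I replicate 2 and at 0 in the other 8 samples, in a library where Hist2h3c2 had its lowest value.

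Of the low genes, Hist1h4i (H4) ranged from 0 to 7.91 TPM and had means of 3.66 ± 1.35, 2.21 ± 1.92 and 4.41 ± 3.05 TPM. Hist2h2ac (H2A) was at 0.60, 0.36 and 0 TPM in the Rop7-I samples, 0.69, 3.60 and 1.28 TPM in Rop7-II and 3.71, 2.36 and 2.14 TPM in Rop7-III. All Rop7-III samples of Hist2h2ac were above all Rop7-I samples, with a log2 difference of 1.5 that did not pass (adjusted p = 0.0241). Of the genes near 0, Hist1h4n, Hist2h3c1 and Hist1h4d had the highest means, at 0.837, 0.702 and 0.680 TPM, and none passed in any pair. The table does not give the number of reads behind a value at these levels, and the part of sampling in the differences between samples was not tested.

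By pair of clones, the members were called as follows. For Rop7-III against Rop7-II, 0 of the 35 passed limma's test at an adjusted p under 0.01 against 12.3% of all tested genes (6.39% higher and 5.89% lower in Rop7-III), 1 passed at 0.05 (Hist3h2ba) and 5 had an unadjusted p under 0.05. No other tool was run. This pair had the most calls over all genes. For Rop7-III against Rop7-I, 3 of the 35 passed against 4.85% of all genes. Of these, 2 were higher in Rop7-III (Hist2h2bb and Hist2h4; background 2.58%) and 1 was lower (Hist3h2ba; background 2.28%), and all 3 differed by at least 2-fold on the log2(TPM + 1) scale, against 1.06% of all genes. For Rop7-I against Rop7-II, 4 of the 35 passed against 7.53%, with 2 higher in Rop7-I (Hist3h2ba and Hist1h2bc; background 3.67%) and 2 lower (Hist2h2bb and Hist2h4; background 3.85%). At least 2-fold were 3 of them, against 0.949% of all genes. The latter 2 pairs share the Rop7-I samples, so that their calls are not independent of each other.

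The median log2 difference over the 35 members was 0.04 for Rop7-III against Rop7-II, 0.16 for Rop7-III against Rop7-I and 0.00 for Rop7-I against Rop7-II. Over all tested genes it was -0.02, -0.00 and -0.01. The single genes thus moved in both directions. Many of the 35 had a mean of 1 TPM or less, some of them entering through a single high sample. These medians therefore cannot decide on a common shift of the family, and none was computed over the detected genes alone. With the sample weights of limma, 6 members passed for Rop7-III against Rop7-I, as did 6 without Rop7-II replicate 1, where Hist1h2bc, Hist1h4k and Hist2h2ac joined the 3 named.

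**Figure D3:**
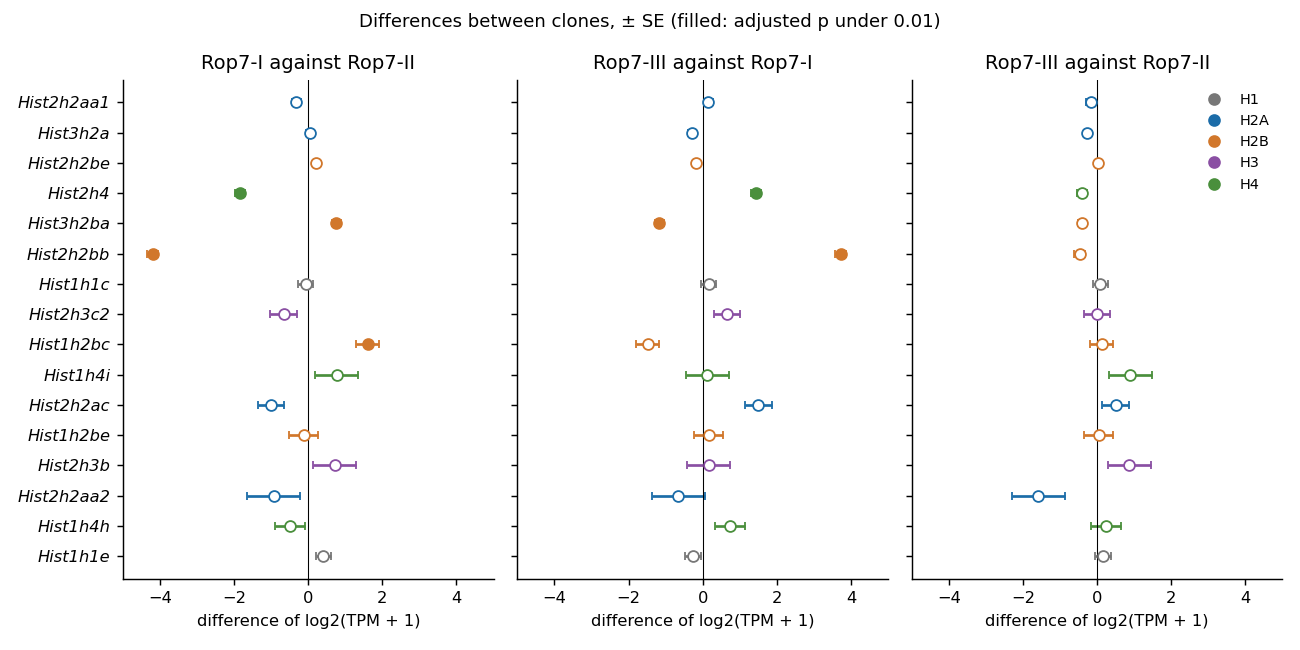
Differences of log2(TPM + 1) (x axis) with their standard errors for the 8 well detected and 8 low histone genes (y axis, highest mean at the top) in the 3 pairs of clones; colours give the family, and filled points have an adjusted p under 0.01. Filled points are 4 for Rop7-I against Rop7-II, 3 for Rop7-III against Rop7-I and 0 for Rop7-III against Rop7-II.

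Since the 4 genes moved in opposite directions, the make-up of each family was set beside its total. The 19 H2B genes summed to 64.3 ± 2.05 TPM in the Rop7-I samples, 68.8 ± 7.67 in Rop7-II and 59.1 ± 3.36 in Rop7-III (SD, n = 3). The Rop7-I totals of 63.1 to 66.7 TPM overlapped those of Rop7-II, at 63.5 to 77.6 TPM, and lay above those of Rop7-III, at 55.4 to 61.9 TPM. Hist2h2bb held 0.604 ± 0.300% of the H2B sum in Rop7-I against 35.6 ± 4.45% in Rop7-II and 29.2 ± 2.06% in Rop7-III. Hist3h2ba held 33.6 ± 2.18% in Rop7-I against 18.2 ± 3.15% and 15.3 ± 0.716%, and Hist1h2bc 13.6 ± 2.32% against 3.45 ± 2.23% and 4.17 ± 0.417%. Hist2h2be was the largest single part in every clone, at 47.1 ± 3.88%, 38.2 ± 2.68% and 45.5 ± 4.53%. The stacked bars by sample show Hist2h2bb almost missing from the Rop7-I totals, with larger parts for Hist3h2ba and Hist1h2bc.

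Among the H4 genes, Hist2h4 was the largest part of the sum on average in each clone, and it held under 50% in each Rop7-I sample. The H4 total was 13.8 ± 2.20 TPM in the Rop7-I samples, 32.3 ± 4.11 in Rop7-II and 29.3 ± 4.78 in Rop7-III, with all Rop7-I samples (12.2 to 16.3 TPM) below all others (24.7 to 34.9 TPM). Hist2h4 held 45.8 ± 3.41%, 77.9 ± 5.00% and 63.9 ± 5.09% of it. Because all 13 genes encode 1 protein, the sum is the level of H4 messages in polyadenylated RNA, and it was below the other clones in Rop7-I. Genes with identical proteins were also summed into 1 row before the fit. The H4 sum then passed in both pairs that involve Rop7-I, as did the sum of Hist1h2bc, Hist1h2be and Hist1h2bg. The latter sum was 10.2 ± 1.37, 3.88 ± 1.29 and 3.90 ± 0.885 TPM. These sums contain Hist2h4 and Hist1h2bc, whose differences are given above, so their calls are not separate results. All members together summed to 180.1 ± 24.0, 212.9 ± 11.4 and 189.7 ± 7.75 TPM.

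**Figure D4:**
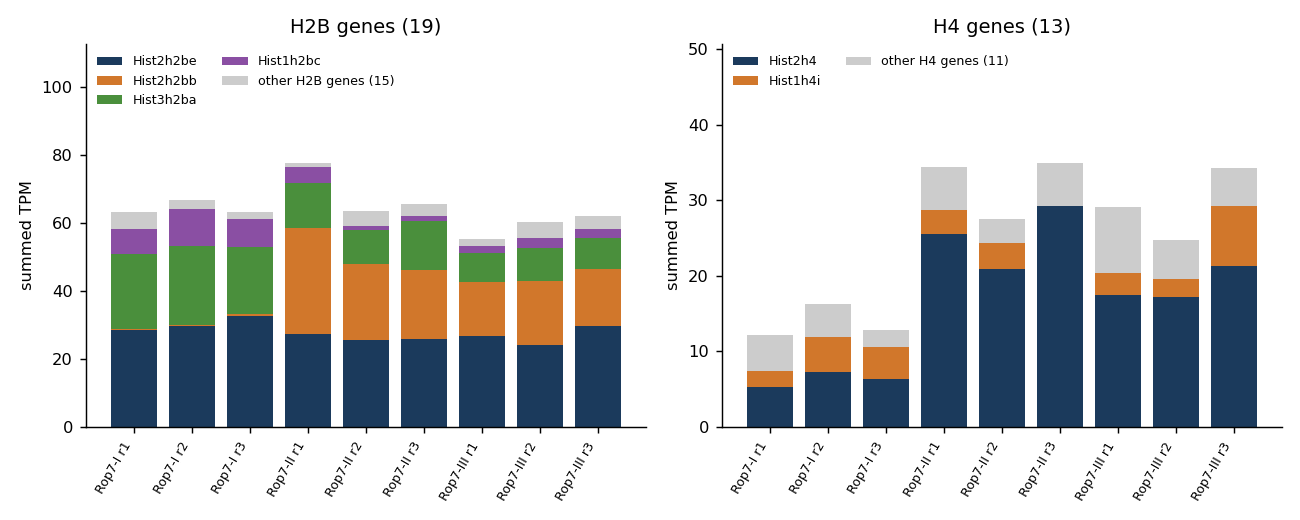
Summed TPM (y axis, linear from 0) of the 19 H2B genes (left) and 13 H4 genes (right) in each of the 9 samples (x axis, r1 to r3 are replicates), split by the leading genes with all others in grey. The H2B bars reach 55.4 to 77.6 TPM with Hist2h2bb almost missing in the Rop7-I samples, and the H4 bars of Rop7-I are the lowest.

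The 150 bases upstream of the annotated start were read from RefSeq promoters on GRCm38.p6. Promoters were matched for 61 of the 68 genes, with 62 promoters in all. Of the 4 genes that passed, Hist2h2bb and Hist3h2ba were matched, and Hist2h4 and Hist1h2bc were not. The windows of Hist2h2bb (chr3:96269550-96269699, plus strand) and Hist3h2ba (chr11:58948761-58948910, plus strand) are printed because these H2B genes differed in opposite directions. Capitals mark 3 motifs searched on both strands, the TATA box as TATAAA, the CCAAT box as CCAAT, and the octamer as ATTTGCAT, none of which contains another.
Hist2h2bb: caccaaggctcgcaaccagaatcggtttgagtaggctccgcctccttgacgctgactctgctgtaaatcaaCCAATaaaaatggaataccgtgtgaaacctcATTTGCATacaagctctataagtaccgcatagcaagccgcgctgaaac
Hist3h2ba: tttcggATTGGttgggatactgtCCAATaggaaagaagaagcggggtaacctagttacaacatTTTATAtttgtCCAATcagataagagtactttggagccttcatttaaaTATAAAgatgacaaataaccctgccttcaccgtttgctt
Hist2h2bb held the CCAAT box and the octamer, and Hist3h2ba held the CCAAT box and the TATA box, each at more than 1 place. Among the 62 promoters, the CCAAT box was found in 51 (82.3%), the TATA box in 24 (38.7%) and the octamer in 11 (17.7%). Of 32851 promoters of all genes, 24.5%, 7.57% and 0.998% held them. By family, the CCAAT box was in all 17 H2B and all 17 H2A promoters but in 3 of 12 H4 promoters, and the octamer was found in 6 H2B and 5 H2A promoters and in no H1, H3 or H4 promoter. A match of letters is a description and not a bound site.

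The tested genes around the members were then examined, by a rule set after the values had been seen. Within 100 kb of Hist2h2bb and Hist2h4, 5 genes outside the histone families were tested, Bola1, Fcgr1, Mtmr11, Sf3b4 and Sv2a. For Rop7-I against Rop7-II, 1 of the 5 passed, Sv2a, a synaptic vesicle protein gene, at a log2 difference of -0.62 (adjusted p = 0.00101). For Rop7-III against Rop7-I 0 of the 5 passed limma's test, the smallest adjusted p being 0.0212 for Sv2a. For Rop7-III against Rop7-II 1 passed, Bola1, at -0.51 (adjusted p = 0.00374). The other histone genes of this cluster did not pass. Hist2h3b lies between Hist2h4 and Hist2h2bb, but its mean was 1.35 TPM and it was at 0 in 3 samples. Of its windows, 77.1% are shared with listed genes, so its result says little about this stretch.

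Around Hist3h2ba, 3 of 5 such neighbours passed for Rop7-III against Rop7-I and 4 of 5 for Rop7-I against Rop7-II. The uncharacterised 2810021J22Rik was lower in Rop7-I relative to Rop7-II at a log2 difference of -1.23 and Trim11, a ubiquitin ligase gene, at -0.37, whereas Trim17 and Zfp39 were higher in Rop7-I by 0.92 and 0.40. Trim17 overlaps Hist3h2a and was at 1.60 ± 0.0764, 0.380 ± 0.149 and 0.477 ± 0.195 TPM. The neighbours of Hist3h2ba thus moved in both directions in Rop7-I, and for these counts the background is the 4.85% and 7.53% given above. Whether the differences of adjoining genes belong together was not tested. The 1 tested neighbour of Hist1h2bc outside the families, Hfe, did not pass.

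**Figure D5:**
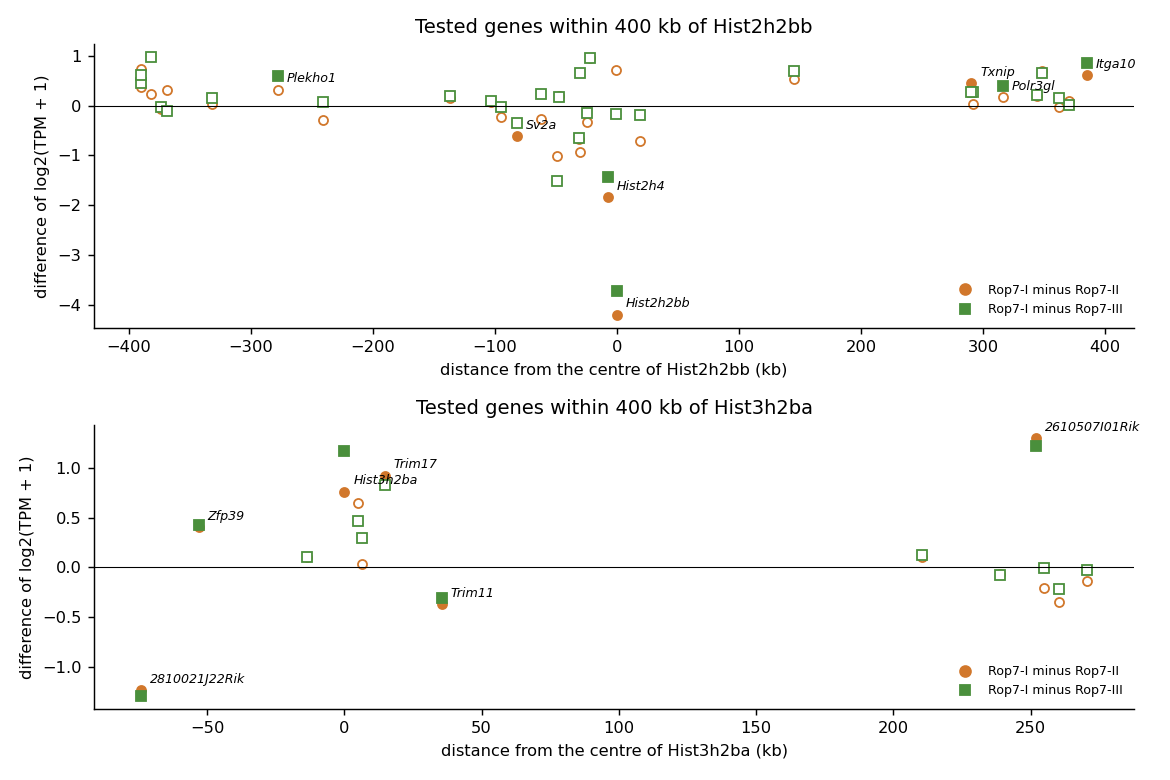
Differences of log2(TPM + 1) (y axis) for Rop7-I minus Rop7-II (circles) and Rop7-I minus Rop7-III (squares) of all tested genes within 400 kb of Hist2h2bb (top) and Hist3h2ba (bottom), by distance in kb (x axis); filled symbols have an adjusted p under 0.01. Hist2h2bb and Hist2h4 are the lowest filled points of the upper panel, and the lower panel has filled points on both sides of 0.

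Other genes of histone biology were counted from lists chosen with earlier results known, and their shares are set beside those of all tested genes, 12.3%, 4.85% and 7.53% for Rop7-III against Rop7-II, Rop7-III against Rop7-I and Rop7-I against Rop7-II. Of 14 variant histone genes, 9 were tested, and H2afy, which encodes macroH2A1, was the one that passed, at 403 ± 14.1 TPM in the Rop7-I samples, 316 ± 17.6 in Rop7-II and 440 ± 1.95 in Rop7-III. It was above its Rop7-II level in both Rop7-I (log2 difference 0.35, adjusted p = 6.49e-04) and Rop7-III (0.48, adjusted p = 7.10e-05). H2afz and H3f3b, at 249 to 267 and 343 to 376 TPM by clone mean, did not pass. In this polyadenylated RNA they lay far above every replication-type gene. Replication-type RNA normally has no poly(A) tail, so these values do not compare the amounts in the cells.

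Among 23 tested genes for histone transcription and RNA processing, 1 was higher and 2 were lower in Rop7-III relative to Rop7-II, 1 was higher and 0 lower in Rop7-III relative to Rop7-I, and 1 was higher and 2 lower in Rop7-I relative to Rop7-II. These are 13.0%, 4.35% and 13.0% of the list, and the median log2 differences were 0.05, -0.02 and 0.04. Casp8ap2, which encodes FLASH, a partner in 3' end cleavage of histone RNA, was higher in Rop7-III by 0.34 against Rop7-II and 0.25 against Rop7-I. Mif4gd, which encodes a partner of Slbp in histone translation, was lower than in Rop7-II at a log2 difference of -0.42 in Rop7-III and -0.33 in Rop7-I. Slbp itself was at 70.2 ± 4.65, 67.4 ± 4.10 and 75.4 ± 4.48 TPM and the clone means of the transcription coactivator Npat lay between 19.4 and 20.9 TPM, and neither passed in any pair.

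Of 28 histone chaperone genes, 1 was higher and 3 were lower in Rop7-III relative to Rop7-II, 0 higher and 3 lower in Rop7-III relative to Rop7-I, and 0 higher and 1 lower in Rop7-I relative to Rop7-II. The shares called were 14.3%, 10.7% and 3.57%, and the median log2 differences -0.08, -0.03 and -0.00. The FACT subunit gene Supt16 was lower in Rop7-III relative to Rop7-I at a log2 difference of -0.25 and the CENP-A chaperone gene Hjurp at a log2 difference of -0.37, while Nap1l4 was higher in Rop7-III relative to Rop7-II by 0.19.

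Cell cycle genes were read because replication-type histones follow S phase. Of 22 S phase genes, 1 was higher and 5 were lower in Rop7-III relative to Rop7-II, 1 higher and 1 lower in Rop7-III relative to Rop7-I, and 0 higher and 1 lower in Rop7-I relative to Rop7-II. The shares called were 27.3%, 9.09% and 4.55%, and the median log2 differences 0.02, -0.01 and 0.00. Rrm2, a subunit of ribonucleotide reductase, was the one that was higher, at 6.01 ± 0.602 TPM in Rop7-III against 2.77 ± 0.456 in Rop7-II (log2 difference 0.90), and the helicase gene Mcm6 was lower in both Rop7-III (-0.88) and Rop7-I (-0.92) than in Rop7-II. Of 14 tested mitosis genes, 8 were higher in Rop7-III relative to Rop7-II and 6 higher than in Rop7-I, with 0 lower, and 0 passed limma's test in either direction for Rop7-I against Rop7-II. Of all tested genes, 6.39% were higher in Rop7-III against Rop7-II and 2.58% against Rop7-I, where the mitosis genes had shares of 57.1% and 42.9%. Their median log2 differences were 0.97, 0.89 and 0.05. Some of the 14 passed the filter on low values only through Rop7-III samples, such as Tpx2, at no more than 0.69 TPM in the other clones. The counts and shares of this list therefore favour genes that are high in Rop7-III. Top2a stood at 8.15 ± 2.15 TPM in Rop7-III against 1.02 ± 0.361 in Rop7-II and 1.89 ± 0.249 in Rop7-I. In the same pair of Rop7-III and Rop7-II, 0 of the 35 histone genes passed. The relation between the mitosis genes and the histone genes was not tested.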

How the data were processed

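The authors sequenced polyadenylated RNA as single-end reads without strand, aligned and counted them with RSEM 1.2.11 against mm10 RefSeq genes, and deposited TPM values with 2 decimals for each sample. They used DESeq2 1.8.1 on counts, which were not used here. The methods give only a typical read number per sample and the TPM table gives no depth of its own, so no counting interval was computed. RSEM shares reads among near-identical copies, which can move values between them.

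TPM were fitted as log2(TPM + 1) in limma 3.58.1 (R 4.3.3) with a trend on mean expression, for the 12115 of 24060 genes with a maximum above 1 TPM. All 9 samples entered, grouped by clone from the labels, with 6 residual degrees of freedom. Benjamini-Hochberg adjustment ran over all tested genes, with a threshold of 0.01. The test was checked on simulated data. Named are genes with a mean of at least 5 TPM, those that passed in a pair, the 3 highest in each lower class, and up to 5 genes of each list with the smallest F test p. Slbp, Npat, H2afz, H3f3b, Hist1h2be, Hist1h2bg, Hist1h2bq, Hist1h2br, Hist1h4f, Hist1h4k, Hist2h2aa2, Hist2h3b, Hist3h2bb-ps and the neighbours were named besides. The members and lists were chosen with earlier results of these data known. Nothing in the labels ties replicates to separate mice beyond calling them biological. Stem-loops, lengths and protein identity came from GENCODE M21, promoters from RefSeq.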

Additional observations from a re-analysis of the deposited data

How the results depend on the processing

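The depth of each sample is not given with the TPM, and no counting bound was computed for low genes. Deviations of same-numbered samples from their clone means correlated at -0.39 to 0.11, and 1 of 9 pairs exceeded 0.1. With 3 samples per clone, these correlations cannot decide whether same-numbered samples were handled together. With the replicate block, 0, 3 and 2 members passed for Rop7-III against Rop7-II, Rop7-III against Rop7-I and Rop7-I against Rop7-II, and 3 in the F test. The main counts were 0, 3, 4 and 4. At an adjusted p under 0.05, the first 2 pairs gave 1 and 6. For Rop7-III against Rop7-I, sample weights gave 6 and a fit of only the clones compared gave 6, whereas the latter gave 2 for Rop7-I against Rop7-II. Without both libraries highest in B-cell markers, an alternative added after seeing the data, the first 2 pairs gave 1 (Hist2h2aa2) and 5. Leaving out each sample gave 0 to 1, 3 to 6, 2 to 4 and 3 to 6, and the extremes came without Rop7-II replicate 2 for the first pair, Rop7-II replicate 1 for the second, and Rop7-I replicate 1 or 2 for the third. The cause of these changes was not tested. Hist2h2bb and Hist2h4 passed in both pairs with Rop7-I in all 21 alternatives that tested them. Hist2h2bb had no row under a filter of at least 1 TPM in every sample. Hist3h2ba kept its call of Rop7-I against Rop7-II in 17 of 22 alternatives. Values that turned sign had all missed the threshold. When each sample was left out, Hist1h1c ranged from -0.032 to 0.31 for Rop7-III against Rop7-II and from -0.19 to 0.16 for Rop7-I against Rop7-II, and in the same Rop7-III against Rop7-II pair Hist1h2bc ranged from -0.17 to 0.53, Hist2h2be from -0.0395 to 0.10 and Hist2h3c2 from -0.25 to 0.21. Hist3h2a ranged from -0.0481 to 0.16 for Rop7-I against Rop7-II. Hist1h1c in that pair was 0.0489 with sample weights and 0.0357 without both B-cell libraries, where Hist3h2a was -0.0361. Hist2h3c2 was 0.0352 for Rop7-III against Rop7-II with quantile normalization.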

Other observations

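Hist1h2ac, an H2A gene chosen after its values were seen, was listed at 0.40, 0.42 and 0.38 TPM in the Rop7-I samples and at 0 in all 6 samples of the other clones. It was the only one of the 68 histone genes with this pattern. It fell below the filter on low values. With no filter it passed limma's test in both pairs that involve Rop7-I, at a level for which the table gives no number of reads. It was picked for this pattern, so a test on the same values adds no support. How many of all genes show the pattern was not counted.

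RefSeq places its promoter on the minus strand of chromosome 13 (GRCm38.p6 chr13:23683960-23684109), next to the annotated start of Hist1h2bc on the plus strand, which was higher in Rop7-I than in Rop7-II. The 150 bases are shown because they lie between these H2A and H2B genes. Capitals mark the octamer, the CCAAT box and the TATA box on either strand.
Hist1h2ac: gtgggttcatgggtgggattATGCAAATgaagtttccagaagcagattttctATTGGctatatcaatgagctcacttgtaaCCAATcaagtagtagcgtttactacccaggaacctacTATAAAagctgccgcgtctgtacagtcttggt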
